A study of Mus musculus with 14 samples.

Results

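Microglia sorted from sham-injected mouse retinas were compared between APOE E4 and APOE E3 animals, as the baseline state without a glaucoma model. The comparison used 8 of the 14 libraries of the study, chosen by their labels: 4 from retinas of APOE E4 mice after sham injection and 4 from retinas of APOE E3 mice after sham injection. The APOE E4 animals carried the genotype APOE E4/E4 and the strain label APOE E4, and the others the genotype APOE E3/E3 and the strain label APOE E3. All were 12 weeks old, and the labels give no sex. The other 6 libraries came from retinas injected with microbeads, a glaucoma model in which beads raise the pressure inside the eye, with 3 from APOE E4 mice and 3 from APOE E3 mice. They are described here to show whether a genotype difference was also present in other retinas of the same strains. All 14 libraries were fitted together, so the microbead libraries also shaped the filter on low counts and the estimate of the spread. Cells were gated as CD11b+, Ly6c-negative and Fcrls+, and 100 to 600 cells were collected per retina. The labels do not say whether the retinas of a group came from separate mice, so the p-values below measure the spread between these samples.

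Apolipoprotein E carries cholesterol and other lipids between cells in the brain and the retina, and binds receptors of the low-density lipoprotein receptor family and TREM2. The human alleles APOE3 and APOE4 differ in how their products carry lipid and bind receptors, and APOE4 is the common allele most strongly tied to Alzheimer's disease. Retinal microglia are resident macrophages that survey the tissue, clear debris and synapses, and leave their homeostatic state for a disease-associated one, through TREM2 and its adaptor TYROBP, when neurons degenerate.

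The libraries held few reads, and genes typical of microglia stood high in them. Estimated reads per library ran from 453125 to 627934 in APOE E4 sham retinas and from 554474 to 727927 in APOE E3 sham retinas. A set of 8 predicted genes made of satellite repeat took 43.8% to 52.7% of the reads in the APOE E4 and 37.7% to 60.0% in the APOE E3 sham libraries, which left 249075 to 403198 reads per sham library for all other genes. Cst3, Csf1r, Cx3cr1 and Tmem119 stood high in every sham library, at mean levels from 1336 to 12249 normalised CPM (read counts relative to the library total, scaled by trimmed mean of M values). The monocyte gene Ly6c2 had at most 4.46 reads in any sham library. Rod photoreceptor transcripts were present and uneven, with a summed level of 638 to 2325 CPM in APOE E4 and 452 to 2945 CPM in APOE E3 sham libraries, high in APOE E4 sham 1 and in APOE E3 sham 3 and 4. The transcript set holds the mouse Apoe gene and no human one, and mouse Apoe had 5 reads over the APOE E4 and 7 over the APOE E3 sham libraries, so the genotype labels could not be checked against the targeted gene.

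Across 7648 genes with enough reads to test, the microglia of the genotypes differed in 2 after sham. C5ar2, a receptor for complement C5a, was higher in APOE E4 sham microglia, and Gm5905, a processed pseudogene that copies the ribosomal protein gene Rps9, was lower (edgeR quasi-likelihood test, Benjamini-Hochberg adjusted p under 0.05). These calls are 0.0262% of the genes tested. An unadjusted p under 0.05 was reached by 338 genes, or 4.42%, of which 191 (2.5%) were higher and 147 (1.92%) lower in APOE E4. All 4 APOE E4 libraries stood above all 4 APOE E3 libraries for 171 genes (2.24%) and below them for 100 genes (1.31%).

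The precision of the comparison depended on the reads behind a gene. Of the 2317 genes with at least 200 reads over the 8 sham libraries, 84.4% had a 95% interval that lay within a 2-fold difference either way. Among the 5069 genes with 50 to 199 reads this held for 31.7%, so for most of those genes the interval reached a difference of 2-fold or more. The median log2 fold change over all genes tested was 0.00, with quartiles at -0.25 and 0.25. In the microbead libraries the same genotype comparison called 44 genes, or 0.575%.

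**Figure D1:**
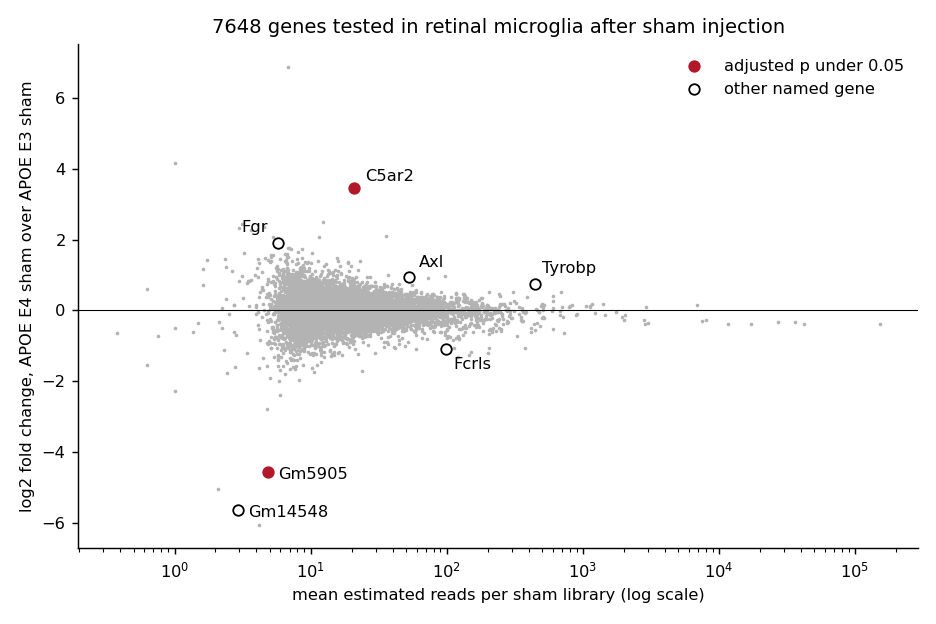
Log2 fold change of APOE E4 sham over APOE E3 sham microglia (vertical axis) against the mean number of estimated reads per sham library (horizontal axis, log scale) for the 7648 genes tested, each a grey point. C5ar2 at 3.44 and Gm5905 at -4.56, in red, passed the test; Gm14548, Tyrobp, Fcrls, Axl and Fgr, as open circles, did not, and neither did the outermost grey points Gm28438 at 6.87 and Gm47495 at -6.06, which had an adjusted p of 0.961.

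C5ar2 was nearly silent in APOE E3 microglia and present in every APOE E4 library. The gene (ENSMUSG00000074361, minus strand of chromosome 7, 16234585 to 16244154, GRCm38) encodes a second receptor for the complement fragment C5a, which does not couple to G proteins as C5AR1 does. Estimated reads were 33.0, 42.5, 35.1 and 40.8 in the APOE E4 sham libraries, against 5.67, 3.46, 0 and 5.63 in the APOE E3 sham libraries. Every APOE E4 library held several times the reads of the highest APOE E3 library, and the groups did not overlap. C5ar2 averaged 67.0 ± 8.01 CPM in APOE E4 and 5.67 ± 4.31 CPM in APOE E3 sham microglia (SD, n = 4 each). The log2 fold change was 3.44 ± 0.38 (SE; edgeR adjusted p = 5.8e-06). As a ratio of the summed reads, 151 in APOE E4 against 15 in APOE E3, it was 11.1-fold higher, with an exact 95% interval of 6.51 to 20.3 that covers counting error only.

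The microbead retinas, which are separate libraries, showed a difference of the same direction. Estimated reads of C5ar2 were 38.4, 54.7 and 39.7 in APOE E4 and 3.67, 6.87 and 7.90 in APOE E3 microbead libraries, again without overlap. The log2 fold change there was 2.94 ± 0.40 (edgeR adjusted p = 0.000222), and its difference from the sham value was -0.50 (edgeR adjusted p = 0.925).

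The reads of C5ar2 fell on different transcripts in different libraries. The transcript of the GENCODE M21 annotation, ENSMUST00000171425 with 3381 bases, held 19.2 reads in all, in APOE E3 sham 1 and 4 and in APOE E3 microbead 3. The transcripts ENSMUST00000238893 (3522 bases) and ENSMUST00000238927 (3429 bases), which that annotation lacks, held 77.6 and 220.7 reads. Among the APOE E4 sham libraries, numbers 2 and 3 had all their C5ar2 reads on ENSMUST00000238893 and numbers 1 and 4 on ENSMUST00000238927, so the estimate placed each library's reads on a single transcript. They were assigned to C5ar2 because the deposited gene table contains their abundance under that symbol. With genes taken from M21 alone, every APOE E4 library is at 0 for C5ar2 and the gene was not tested. Limma-voom gave C5ar2 an adjusted p of 0.133, and the other tests and settings that could test it called it.

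C5ar2 lies 3.45 Mb from Apoe on chromosome 7. Within 5 Mb of Apoe 45 genes were tested, with a median log2 fold change of -0.09. Of these, 4 had an unadjusted p under 0.05, where 4.42% of all genes tested did. C5ar2 was the 1 called, where 0.0262% of all genes tested were. Its direct neighbour C5ar1, which encodes the main signalling receptor for C5a, had 71.8, 75.9, 71.1 and 65.9 CPM in APOE E4 and 32.5, 47.3, 38.4 and 58.6 CPM in APOE E3 sham libraries. The groups did not overlap, but the log2 fold change of 0.67 ± 0.24 did not pass the test over all genes (edgeR adjusted p = 0.961), and in the microbead libraries it was 0.00. The other genes tested within 100 kb, Meis3, Sae1 and Dhx34, had log2 fold changes of 0.40, -0.07 and -0.22.

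Gm5905 showed the opposite pattern at low counts. The pseudogene (ENSMUSG00000110275, minus strand of chromosome 7, 141177885 to 141178464, GRCm38) lies 121 Mb from Apoe. It is a spliced copy of the messenger RNA of Rps9, a protein of the small ribosomal subunit, inserted back into the genome. Over 585 aligned columns its sequence was 97.3% identical to the coding stretch of Rps9, with 11 substitutions, 5 gap columns and a longest identical run of 262 bases. Of the stretches of 150 bases without a gap, the one shown was picked for holding the most substitutions, 5, in capitals. It shows how few positions separate reads of the copy (chr7:141177953-141178102, GRCm38, minus strand) from reads of Rps9 (bases 465 to 614 of its transcript):
Gm5905: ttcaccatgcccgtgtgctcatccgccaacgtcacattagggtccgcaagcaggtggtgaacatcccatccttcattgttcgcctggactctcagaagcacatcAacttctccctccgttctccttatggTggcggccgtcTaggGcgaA
Rps9: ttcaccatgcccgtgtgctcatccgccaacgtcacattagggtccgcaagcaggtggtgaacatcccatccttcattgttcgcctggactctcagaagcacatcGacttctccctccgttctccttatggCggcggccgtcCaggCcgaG

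Estimated reads of Gm5905 were 1.46, 0, 0 and 0 in APOE E4 sham libraries, against 9.50, 11.6, 6.76 and 9.38 in APOE E3 sham libraries. Every APOE E3 library held reads and 1 APOE E4 library did, so the groups did not overlap. The fitted log2 fold change was -4.56 ± 0.81 (edgeR adjusted p = 0.0232), and the summed reads, 1 in APOE E4 against 37 in APOE E3, were 33.6-fold lower in APOE E4, with an exact 95% interval of 5.67 to 1362 for counting error only. The microbead libraries held 0, 0 and 0 reads in APOE E4 and 14.7, 34.6 and 26.4 in APOE E3 (edgeR adjusted p = 0.000222). Gm5905 was called in 16 of 30 other fits of the sham comparison, with adjusted p from 0.00306 to 0.888. In the fit of the 8 sham libraries alone and at a minimum count of 30 it fell under the filter and was not tested. The 8 sham libraries alone thus do not give this call. It lost the call without APOE E4 sham 2, 3 or 4, without APOE E3 sham 1, 2 or 3 and without APOE E3 microbead 2 or 3.

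Rps9 itself had 235, 305, 268 and 213 CPM in APOE E4 and 192, 179, 226 and 202 CPM in APOE E3 sham libraries, with overlap. Its log2 fold change was 0.36 ± 0.18 (edgeR adjusted p = 0.961). With the reads of Rps9 and Gm5905 added together, it was 0.25. Reads of the copy and of its parent can be told apart only where they cover a difference between the sequences, so the level of Gm5905 is uncertain.

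A further predicted gene on chromosome 7 had no reads in any APOE E4 sham library. Gm14548 (ENSMUSG00000074417, 3884242 to 3898120, GRCm38), picked after its values were seen, belongs to the cluster of paired immunoglobulin-like receptors, which bind MHC class I on myeloid cells. It was 97.8% identical to Pira2 over 2120 columns and 97.3% identical to Pirb over 1936. Against Pirb there were 52 substitutions and a longest identical run of 523 bases. The stretch shown was picked for holding the most substitutions. In bases 1783 to 1932 of the Gm14548 transcript and 1803 to 1952 of that of Pirb, the 11 substitutions are in capitals:
Gm14548: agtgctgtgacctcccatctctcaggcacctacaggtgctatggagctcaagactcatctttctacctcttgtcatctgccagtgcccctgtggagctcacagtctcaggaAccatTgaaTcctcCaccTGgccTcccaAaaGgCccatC
Pirb: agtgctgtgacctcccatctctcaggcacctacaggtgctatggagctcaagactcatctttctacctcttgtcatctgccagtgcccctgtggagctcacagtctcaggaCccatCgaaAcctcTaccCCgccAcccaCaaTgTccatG

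Estimated reads of Gm14548 were 0 in each APOE E4 sham library and 3.90, 8.64, 8.64 and 2.17 in APOE E3 sham libraries. Over the groups, 0 reads in APOE E4 stood against 24 in APOE E3. The exact 95% interval for counting error only starts at 5.46-fold lower in APOE E4 and has no upper end. The gene did not pass the test (edgeR adjusted p = 0.461). In the microbead libraries, with 2 reads in APOE E4 and 102 in APOE E3, it did (edgeR adjusted p = 0.0108). At a minimum count of 30 and in the fit of the 8 sham libraries alone Gm14548 fell under the filter and was not tested. It passed the filter through the microbead libraries, so their call is no separate support.

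Pirb, the inhibitory receptor of the cluster, had 93.3, 61.0, 23.1 and 50.8 CPM in APOE E4 and 94.1, 102, 86.9 and 108 CPM in APOE E3 sham libraries. The groups overlapped through APOE E4 sham 1. The log2 fold change was -0.77 ± 0.28 (edgeR adjusted p = 0.961), against -0.85 in the microbead libraries. With the reads of Pira2, Lilra6, Gm14548 and Gm15448 added to those of Pirb, the sham value was -0.92 (edgeR adjusted p = 0.961). Summed sham reads were 3 in APOE E4 against 0 in APOE E3 for Pira2, 3 against 6 for Lilra6 and 0 against 11 for Gm15448. Reads of such similar genes can be told apart only where they cover a difference between the sequences, so the level of Gm14548 is uncertain. These receptor genes start 15.8 to 16.0 Mb from Apoe, on the same chromosome.

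**Figure D2:**
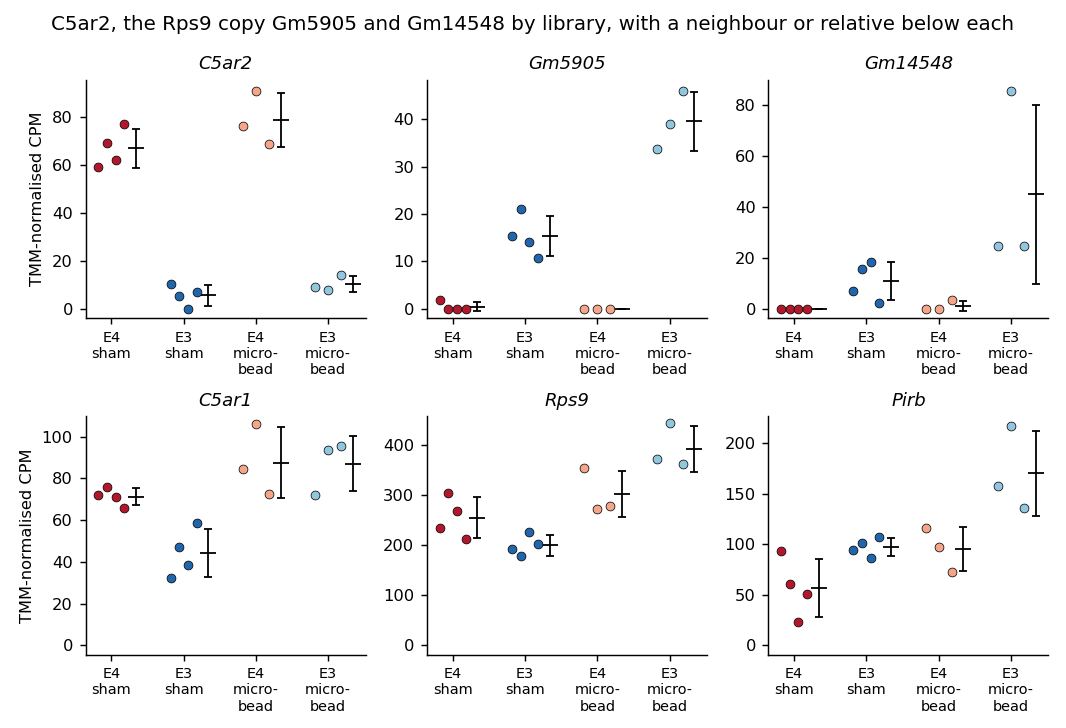
Normalised CPM (vertical axis) of C5ar2, Gm5905 and Gm14548 in the upper row and of C5ar1, Rps9 and Pirb in the lower row, in APOE E4 sham, APOE E3 sham, APOE E4 microbead and APOE E3 microbead libraries. Each point is a library, and bars give the mean and SD; C5ar2 is above 59 CPM in every APOE E4 sham library and at most 10.3 CPM in the APOE E3 sham libraries.

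The genes next in rank included known parts of microglial signalling, but none of them passed the test. Tyrobp, the adaptor that carries the signal of TREM2 and other receptors, had 946, 1038, 880 and 958 CPM in APOE E4 and 563, 494, 665 and 541 CPM in APOE E3 sham libraries. Every APOE E4 library stood above every APOE E3 library, with means of 956 ± 64.7 CPM in APOE E4 and 566 ± 72.3 CPM in APOE E3 (SD, n = 4 each). The log2 fold change was 0.76 ± 0.16 with an edgeR adjusted p of 0.102; DESeq2 gave an adjusted p of 0.000487, and over all settings it ran from that value to 0.994. In microbead retinas it was -0.28. Trem2 itself averaged 601 ± 53.3 CPM in APOE E4 and 615 ± 93.5 CPM in APOE E3 sham microglia (SD, n = 4 each), with a log2 fold change of -0.03 and a 95% interval of -0.38 to 0.31.

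Fcrls, whose protein was used to sort the cells, had 77.2, 89.1, 112 and 137 CPM in APOE E4 and 176, 163, 279 and 264 CPM in APOE E3 sham libraries. The groups did not overlap. The APOE E3 libraries richest in rod transcripts, numbers 3 and 4, were the highest, and APOE E4 sham 1, the richest of its group, was the lowest. The log2 fold change was -1.09 ± 0.24 (edgeR adjusted p = 0.160). Without these 3 libraries, the richest in rod transcripts, it was -0.60, but that fit left out the extreme values of both groups. It was -1.01 with the rod level as a covariate and -0.28 in microbead retinas.

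Axl, a receptor tyrosine kinase that takes up dying cells, had 113, 112, 121 and 126 CPM in APOE E4 and 46.2, 47.3, 56.6 and 93.3 CPM in APOE E3 sham libraries. The groups did not overlap, and APOE E3 sham 4 stood nearest to the APOE E4 libraries. Its log2 fold change of 0.93 ± 0.24 did not pass (edgeR adjusted p = 0.461), against -0.64 in microbead retinas.

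Fgr, a Src-family kinase of myeloid cells, had 16.2, 18.1, 12.4 and 16.9 CPM in APOE E4 and 3.42, 3.50, 10.1 and 1.20 CPM in APOE E3 sham libraries, from 36 reads in APOE E4 and 10 in APOE E3. The groups did not overlap. In log2 the fold change was 1.90 ± 0.50 after sham (edgeR adjusted p = 0.511) and -1.75 after microbeads, and the difference between these genotype effects, -3.64, passed its own test (edgeR adjusted p = 0.0151), as did 0.0915% of the genes tested. The call of Fgr held in 21 of 30 other fits and was lost without APOE E4 sham 2, APOE E4 microbead 1 or 3 or APOE E3 microbead 2, with adjusted p from 0.000593 to 0.880 and a difference of -4.29 to -2.11 over all of them. At a minimum count of 30 and in the fit of the 8 sham libraries alone Fgr fell under the filter and was not tested. The microbead libraries, with 29 reads in APOE E4 and 114 in APOE E3, brought it past the filter and also enter the difference.

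**Figure D3:**
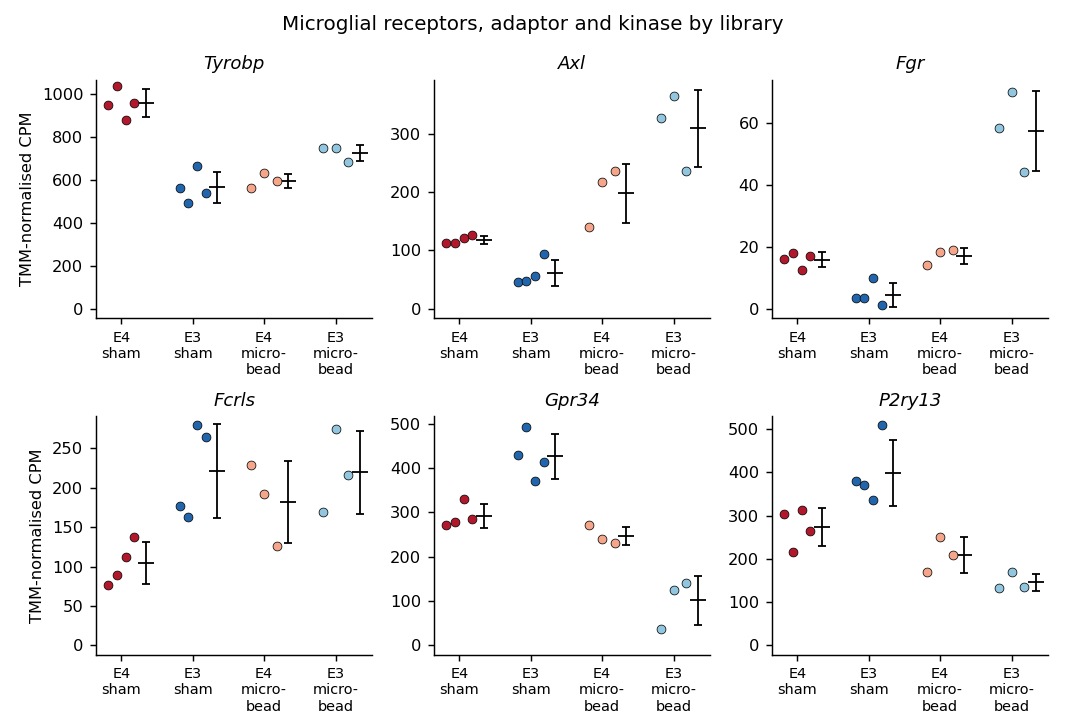
Normalised CPM (vertical axis) of Tyrobp, Axl and Fgr in the upper row and Fcrls, Gpr34 and P2ry13 in the lower row, by library, in APOE E4 sham, APOE E3 sham, APOE E4 microbead and APOE E3 microbead retinas, with the mean and SD beside the points. In sham retinas the APOE E4 libraries lie above the APOE E3 libraries for the upper row and below them for the lower row, and none of these 6 genes passed the sham test.

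The remaining genes at the top of the ranking had little in common by function. Those with positive values were Cds2, which makes a lipid precursor of phosphoinositides (log2 fold change 1.00), Tbc1d8 (1.12), the phosphatase Ppm1m (1.4), the kinesin Kif24 (1.35), Gpr137 (1.61), the mitochondrial amidotransferase subunit Gatc (1.31), Nckipsd (1.05) and Strn3 (1.24). Those with negative values were the adhesion molecule Nptn (-0.95), the DNA-damage factor C1d (-2.79), Tmem176b (-0.84), Tmx4 (-1.20), separase Espl1 (-1.45), Scamp5 (-0.94), Gcnt2 (-1.03), Mfsd1 (-0.83), Zfp773 (-1.26), Naa20 (-0.93) and the sulfide oxidase Sqor (-1.08). C1d rested on 1 read in each APOE E4 library and 34 reads in the APOE E3 libraries, which is 7.72-fold lower with an exact 95% interval of 2.75 to 29.9 for counting error only. All 19 had an edgeR adjusted p of at least 0.446.

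The homeostatic program of microglia was centred on no difference between the genotypes after sham. Of 57 listed genes 55 were tested and none was called. The median log2 fold change was 0.00, as over all genes, and 48 had a 95% interval within a 2-fold difference. P2ry12, the purinergic receptor that guides microglial processes, had 677, 787, 837 and 755 CPM in APOE E4 and 830.0, 904, 784 and 1059.5 CPM in APOE E3 sham libraries. The groups overlapped, with a log2 fold change of -0.23 ± 0.19 (edgeR adjusted p = 0.961). Tmem119, a surface marker of microglia, averaged 1480.1 ± 143 CPM in APOE E4 and 1336 ± 135 CPM in APOE E3 (SD, n = 4 each), with a log2 fold change of 0.15. For Cx3cr1, the fractalkine receptor, the value was -0.13, for Csf1r, the survival receptor, -0.12, and for Sall1, a transcription factor of microglial identity, 0.29.

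A few homeostatic genes had unadjusted p under 0.05. Besides Fcrls they were P2ry13, Gpr34, Pros1 and Mef2c with negative values and Itgb5 and Rhob with positive values, 7 of 55 genes, where the background is 4.42%. P2ry13, an ADP receptor, had 303, 216, 313 and 264 CPM in APOE E4 and 380, 371, 336 and 509 CPM in APOE E3 sham libraries, without overlap (log2 fold change -0.55). Gpr34, a lysophosphatidylserine receptor, had 271, 279, 331 and 284 CPM in APOE E4 and 430, 494, 370 and 414 CPM in APOE E3, also without overlap. Its log2 fold change was -0.55 ± 0.23 after sham and 1.25 after microbeads, a difference of 1.80 that passed its test (edgeR adjusted p = 0.0378). That call held in 10 of 32 other fits, with adjusted p from 0.000207 to 0.902 and a difference of 1.44 to 2.09, and was lost without any 1 of the 8 sham libraries, without APOE E3 microbead 2 and without any 1 of the APOE E4 microbead libraries. In the microbead retinas 8 homeostatic genes were called higher in APOE E4, where 0.222% of all genes tested were, and the median of the list was 0.52.

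Genes of the disease-associated state gave a median of 0.10 over 38 tested members, with 24 positive and 14 negative values and 0 called. The lowest value was that of Ccl3, at -1.03. Tyrobp, Axl, Cd72 and B2m, all with positive values, had an unadjusted p under 0.05, 4 of 38 genes against 2.5% of all genes tested. Cd72, an inhibitory C-type lectin, had 70.0, 36.3, 33.8 and 45.2 CPM in APOE E4 and 10.3, 24.5, 32.3 and 32.3 CPM in APOE E3 sham libraries (log2 fold change 0.88). The groups did not overlap, though APOE E4 sham 3 exceeded the highest APOE E3 library by little. The markers most used for this state were low in both groups. Clec7a, the beta-glucan receptor dectin-1, averaged 54.8 ± 19.4 CPM in APOE E4 and 53.2 ± 6.11 CPM in APOE E3 (SD, n = 4 each), and Spp1, osteopontin, had 2 reads in APOE E4 and 4 in APOE E3 over the sham libraries. Itgax, which encodes CD11c, had a log2 fold change of 0.68 with a 95% interval of -0.49 to 1.85, and Lgals3, galectin-3, 0.37 with an interval of -1.59 to 2.34. In microbead retinas the median of the list was -0.93.

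Interferon-response genes leaned to positive values without a call. Of 47 tested members 39 had a positive and 8 a negative log2 fold change, with a median of 0.47, against 0.00 over all genes tested. Their 95% intervals were wide, and only 7 lay within a 2-fold difference. Summed over the list, the level was 2660.3, 2319.6, 1835 and 1691 CPM in APOE E4 and 1302, 1371, 1623 and 1753 CPM in APOE E3 sham libraries. APOE E3 sham 4 stood above APOE E4 sham 4, so the groups overlapped. Lgals3bp, a secreted glycoprotein induced by interferon, had 314, 218, 201 and 151 CPM in APOE E4 and 144, 75.3, 107 and 123 CPM in APOE E3, without overlap (log2 fold change 0.97, edgeR adjusted p = 0.961). Ly6e, a membrane protein that restricts viral entry, averaged 615 ± 70.3 CPM in APOE E4 and 433 ± 42.8 CPM in APOE E3 (SD, n = 4 each; log2 fold change 0.51). Irf7, the transcription factor that amplifies the response, had a log2 fold change of 1.12 with a 95% interval of -0.02 to 2.26. The median stayed positive in every setting tried, from 0.33 to 0.63, and was 0.25 in microbead retinas.

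MHC class I genes and the immunoproteasome had a median of 0.26 over 22 tested genes, with 14 positive and 8 negative values and 0 called. B2m, the light chain of class I, averaged 1166 ± 162 CPM in APOE E4 and 872 ± 103 CPM in APOE E3 (SD, n = 4 each; log2 fold change 0.42). H2-K1 and H2-D1, class I heavy chains, had values of 0.47 and 0.38. MHC class II genes had a median of -0.29 over 11 tested genes. H2-Ab1, a class II chain, had a log2 fold change of -0.60 with a 95% interval of -1.58 to 0.38. The sign of the class II median turned in some settings.

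Of the complement genes 11 were tested, and C5ar2 was the 1 called, where 0.0262% of all genes tested were. The subunits of C1q, which tag synapses and debris, had log2 fold changes of 0.13 (C1qa), 0.19 (C1qb) and 0.51 (C1qc). C1qc had 1289, 1199, 1316 and 1534 CPM in APOE E4 and 582, 426, 956 and 1771 CPM in APOE E3 sham libraries. APOE E3 sham 4 stood above every APOE E4 library, and C1qc was called without the 3 sham libraries richest in rods, of which APOE E3 sham 4 is 1 (log2 fold change 1.41, edgeR adjusted p = 0.0335, the lowest of its settings, where the highest was 1.00). C3ar1, the receptor for complement C3a, had a value of -0.30.

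TREM2 and Src-family signalling genes had a median of 0.02 over 34 tested genes, and 27 had an interval within a 2-fold difference. The phosphatase Inpp5d, which limits this signalling, had a log2 fold change of 0.19, and the phospholipase Plcg2, which transmits it, -0.15. The 17 tested genes of TGF-beta signalling, which keeps microglia homeostatic, had a median of 0.03, with Tgfbr1 at 0.17. NF-kB targets and cytokines had a median of -0.17 over 32 tested genes, with 10 positive and 22 negative values, among them the chemokine Ccl2 at -1.24 with a 95% interval of -2.60 to 0.12 and the endotoxin co-receptor Cd14 at -0.56.

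The lipid genes closest to the known work of apolipoprotein E gave medians near 0. Genes of cholesterol efflux, uptake and lipoprotein receptors had a median of -0.02 over 21 tested, with 0 called. Abca1, which loads cholesterol onto apolipoprotein E, had 23.3, 54.4, 42.7 and 39.5 CPM in APOE E4 and 30.8, 26.3, 34.4 and 43.1 CPM in APOE E3 sham libraries. The groups overlapped, with a log2 fold change of 0.24 and a 95% interval of -0.39 to 0.86. Its relative Abcg1 had a value of -0.78 with an interval of -1.62 to 0.06. Sterol synthesis genes had a median of -0.10 over 16 tested, and the regulators Srebf2 and Srebf1 had values of 0.53 and 0.56. Genes of lipid droplets and fatty acids had a median of -0.07 over 24 tested. Plin2, which coats lipid droplets, averaged 11.2 ± 2.98 CPM in APOE E4 and 19.2 ± 8.40 CPM in APOE E3 (SD, n = 4 each; log2 fold change -0.81, 95% interval -1.71 to 0.09), and the medium-chain dehydrogenase Acadm had a value of -0.81.

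Lysosomal genes were centred on no difference. Of 72 tested genes 62 had an interval within a 2-fold difference, the median was -0.02 and none was called. The protease Ctsd averaged 5041 ± 137 CPM in APOE E4 and 4675 ± 454 CPM in APOE E3 (SD, n = 4 each; log2 fold change 0.11), and Ctss had a value of -0.03. Npc2, which hands cholesterol out of the lysosome, had a value of 0.29 ± 0.16, with all 4 APOE E4 libraries above all 4 APOE E3 libraries.

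**Figure D4:**
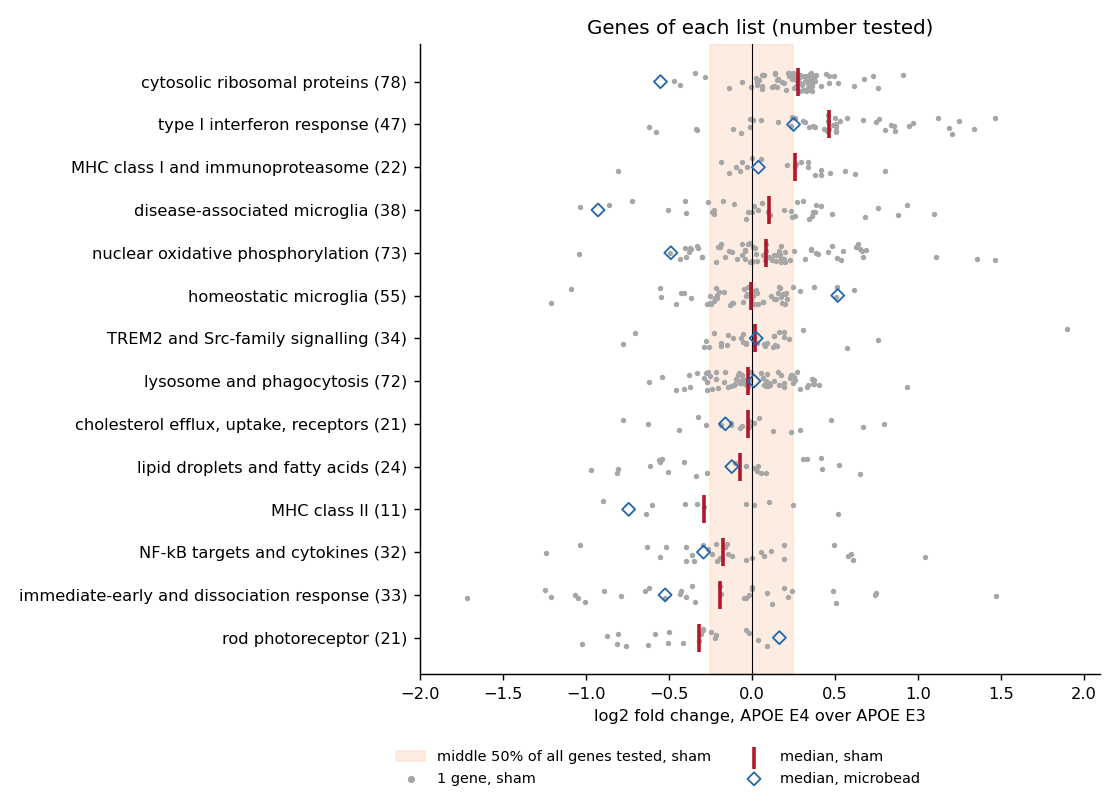
Log2 fold change of APOE E4 over APOE E3 (horizontal axis) for the tested genes of 14 lists (rows), with grey points for single genes after sham, red bars for their medians after sham, blue diamonds for the medians after microbeads and a shaded band for the middle 50% of all genes tested after sham. Ribosomal protein, interferon and MHC class I genes have sham medians of 0.28, 0.47 and 0.26 and the other lists lie nearer to or below 0; the ribosomal median after microbeads is -0.55, and C5ar2 is on none of the 14 lists.

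Cytosolic ribosomal protein genes showed small values that leaned one way. Of 78 tested genes 71 had a positive log2 fold change, with a median of 0.28, and 0 were called. An unadjusted p under 0.05 was reached by 8, all positive, where 2.5% of all genes tested had such a p with a positive value. Their summed level was 12357, 12735, 12599 and 11943 CPM in APOE E4 and 11336, 8418, 11386 and 10670 CPM in APOE E3 sham libraries. The groups did not overlap, and APOE E3 sham 2 was the lowest. Rpl13a, of the large subunit, averaged 232 ± 8.76 CPM in APOE E4 and 165 ± 26.4 CPM in APOE E3 (SD, n = 4 each; log2 fold change 0.49), and Rps14, of the small subunit, 232 ± 16.8 CPM in APOE E4 and 168 ± 36.0 CPM in APOE E3 (log2 fold change 0.46). These genes share reads with many pseudogenes, so their single values are uncertain. In microbead retinas the median of the list was -0.55. Translation factors, at a median of 0.02 over 43 tested genes, and mitochondrial ribosomal proteins, at 0.05 over 51, did not lean in this way.

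Genes of energy metabolism were closer to 0. Nuclear genes of oxidative phosphorylation had a median of 0.09 over 73 tested, 44 positive and 29 negative, and 6 had an unadjusted p under 0.05, all positive, where 2.5% of all genes tested had such a p with a positive value. Among them were Sdhc, a subunit of complex II (log2 fold change 1.36), Ndufc2, of complex I (1.11), and Cox6b1, of complex IV (0.69), the last at 63.4 ± 10.7 CPM in APOE E4 and 39.1 ± 12.4 CPM in APOE E3 (SD, n = 4 each). The 12 tested messenger RNAs of the mitochondrial genome had a median of -0.16 and the 19 tested glycolysis genes -0.04. Proteasome genes had a median of -0.01 over 35 tested, unfolded protein response genes -0.07 over 23, splicing regulators -0.05 over 38 and cell cycle genes -0.18 over 21.

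Genes that respond to tissue dissociation varied more within the groups than between them. Summed over the list of 44 immediate-early and stress genes, the level was 2979 to 6603 CPM in APOE E4 and 2411 to 9732 CPM in APOE E3 sham libraries. Fosb, an immediate-early gene, averaged 16.8 ± 21.1 CPM in APOE E4 and 54.3 ± 60.2 CPM in APOE E3 (SD, n = 4 each). The chaperones Dnajb1 and Hspa1a had log2 fold changes of 0.75 and 1.47, that of Hspa1a with a 95% interval of 0.03 to 2.92.

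Transcripts of other cells were counted in each library. In such pooled cells, fewer cells of a type and less RNA per cell cannot be told apart. All 25 listed rod genes had reads in the sham libraries; of the 21 tested, 19 had negative values with a median of -0.32, and none had an interval within a 2-fold difference. Genes of border-associated macrophages, which line vessels and membranes, summed to 30.5, 54.4, 26.7 and 16.9 CPM in APOE E4 and 63.3, 47.3, 58.6 and 82.5 CPM in APOE E3 sham libraries. The groups overlapped through APOE E4 sham 2 and APOE E3 sham 2. Their defining gene Mrc1, the mannose receptor, had 2, 6, 3 and 3 reads in APOE E4 and 12, 11, 5 and 20 reads in APOE E3 sham libraries (log2 fold change -1.57, edgeR adjusted p = 0.961). Monocyte genes summed to 62.2 to 82.5 CPM in APOE E4 and 69.4 to 114 CPM in APOE E3, with Lyz1 at 0 in all of them. Whether these small amounts take part in the values of other genes was not tested.

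**Figure D5:**
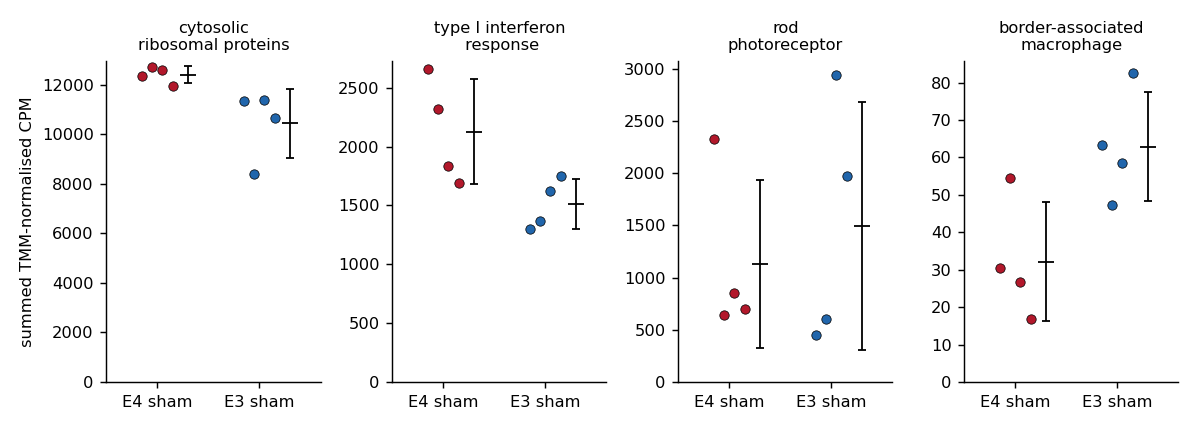
Summed normalised CPM (vertical axis, from 0) of the genes of 4 lists in APOE E4 sham and APOE E3 sham libraries, each point a library, with the mean and SD beside the points. The ribosomal sums do not overlap, at 11943 to 12735 CPM in APOE E4 and 8418 to 11386 CPM in APOE E3, while the interferon, rod and border-associated macrophage sums do.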

How the data were processed

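RNA of sorted microglia was read by Smart-seq2. Salmon 1.4.0, the mm10 build, R 4.0.3 and DESeq2 1.30.1 are named by the submitters' processing notes. The deposited files hold estimated counts and TPM per transcript, and a deposited gene table holds TPM, per the file headers. Here 116450 of 116945 transcripts were assigned to 35686 genes by GENCODE M21 (GRCm38) or, for 427 transcripts absent from it, by the deposited gene table, within 0.0001 TPM. At most 0.0671% of a library's reads stayed unassigned. Estimated counts were summed per gene, rounded and tested with edgeR 4.0.16 (R 4.3.3; TMM scaling, minimum count 10, robust quasi-likelihood fit of all 14 libraries with 1 mean per group; common biological coefficient of variation 0.274). Adjusted p under 0.05 was called. Alternatives used DESeq2 1.42.0, limma 3.58.1 and other filters, scalings, units and libraries. Sequences were aligned with Biopython 1.88. As a check of the labels, in each library at least 99.68% of genes matched the deposited column of its own name. The 427 transcripts assigned by the deposited gene table match it by construction. Named genes were those called, the 12 of smallest p in each direction without predicted genes, pseudogenes or X and Y genes, up to 6 per list by p, 12 of highest TPM and a list of markers, 1 of which is not reported here; others were chosen after their values were seen. The members and lists were chosen with earlier results of these data known. Scripts were tested on simulated data.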

Additional observations from a re-analysis of the deposited data

Results flagged for a closer look

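Of 486 groups of 4 sham libraries checked, 25 had a library far from the other 3 by Dixon's test at the 95% level, where chance alone flags about 1 in 20 groups. Among gene levels in APOE E4 sham retinas, the highest values that stood apart were Strn3 at 35.8 CPM and Hnrnpr at 124 CPM in number 4, and Sqor at 40.9 and Ncoa4 at 72.9 CPM in number 3. The lowest were Nlrp3 at 8.25 CPM in number 2 and Eif3c at 48.5 CPM in number 1. In APOE E3 sham retinas, number 3 stood highest for Ly6e (497 CPM), Psmb3 (42.4 CPM), Sel1l (74.8 CPM), Top2a (60.6 CPM) and Rpl35 (32.3 CPM). Number 2 stood highest for Nckipsd (28.0 CPM) and mt-Co3 (99.8 CPM, with the other 3 libraries at 0), and number 1 for H2-Oa (37.6 CPM). The lowest were H2-K1 at 258 CPM and Tgif1 at 18.8 CPM in number 1, and Thy1 at 19.1 CPM in number 4.

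Summed lists stood apart in the same way. In APOE E4 sham retinas these were rod genes at 2325 CPM in number 1, splicing regulators at 3499 CPM and B cell genes at 359 CPM in number 3, and TREM2 and Src-family genes, at the low end, at 8126 CPM in number 4. In APOE E3 sham retinas they were splicing regulators at 3602 CPM in number 4, cell cycle genes at 1174 CPM and cone genes at 105 CPM in number 3, and oxidative phosphorylation genes, at the low end, at 1999.8 CPM in number 2. APOE E3 sham 3 was thus highest both for cell cycle genes, Top2a among them, and for cone genes.

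The genotype effect differed between microbead and sham retinas for Fgr, by -3.64 on the log2 scale (1.90 after sham, -1.75 after microbeads), and for Gpr34, by 1.80 (-0.55 after sham, 1.25 after microbeads), by the test of the difference itself. Other fits called the difference in 21 of 30 for Fgr and in 10 of 32 for Gpr34, and for Gpr34 the call was lost with the replicate block, with library totals and without any 1 sham library. Fgr passed the filter only with the microbead libraries, which also enter this difference.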

How the results depend on the processing

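The sham comparison called 2 genes in the reported fit. It called 1 gene with library totals as the scaling, a minimum count of 30, only the libraries compared, length offsets, no robust estimation, thinning to equal depth, near-identical genes added together or genes of the M21 annotation only, the last being Gm5905 and the others C5ar2. It called 0 with limma-voom, where 376 genes had an unadjusted p under 0.05, and 13 with no filter on low counts. DESeq2 called 3, the deposited TPM 3 at either pseudocount, and the fit without the 3 rod-richest sham libraries 3. Leaving out single libraries gave 1 to 2 genes. C5ar2 was called in 31 of 32 alternatives, with a log2 fold change of 2.41 to 3.77. Scaled by library totals, all genes tested had a median log2 fold change of 0.16. The medians of the interferon, ribosomal, MHC class I and disease-associated lists were positive in every setting, and those of the other lists changed sign in some.

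The microbead comparison, with 44 genes, called 16 with library totals, 110 with no filter, 25 with length offsets and 4, 1 and 1 with deposited TPM (pseudocount 1, pseudocount 0.5 and no filter). Leaving out single libraries gave 12, without APOE E4 microbead 1, to 118, without APOE E3 microbead 3. The difference between the comparisons, with 7 genes, called 2 with library totals, 46 with DESeq2, 0 with limma-voom, 29 with no filter, 0 with length offsets, 12 after thinning and 1, 1 and 0 with deposited TPM. Leaving out single libraries gave 0 to 30. No gene called in any fit of the sham comparison changed sign among those named; 49 of 209 named genes, none of them called in any fit, and 22 of 26 list medians took both signs over the settings. The cause of these shifts was not tested.

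Deviations of same-numbered APOE E4 and APOE E3 sham libraries correlated by -0.0015, 0.034, 0.0079 and -0.056. Whether equal replicate numbers pair sham with microbead retinas of a genotype was not tested. With the replicate number as a block, 1 gene was called in the sham comparison, C5ar2, and 3 in the difference. The near-identical sums, the rod settings and the M21 genes were chosen after seeing the data.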

Other observations

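A transcript of 159 bases, ENSMUST00000214250, which the deposited gene table lists as AC109138.1, had 9.74, 3.74, 5.20 and 2.78 reads in APOE E4 sham libraries and 0 in each APOE E3 sham library. Its deposited TPM was 68.0, 23.8, 49.7 and 29.9 in APOE E4 and 0 in APOE E3. It fell under the minimum for the count test, and with deposited TPM it was called (limma, log2 fold change 5.34 at pseudocount 1, adjusted p = 0.00276). The microbead libraries held 0, 0 and 0 reads in APOE E4 and 0, 0 and 2.56 in APOE E3. It was chosen after its values were seen.

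Of the 12 genes with an unadjusted p under 0.001, 5 lie on chromosome 7, which holds 616 of the 7648 genes tested. They are C5ar2, Gm5905, Tyrobp, Gm14548 and Axl, at 3.45, 121, 10.7, 15.8 and 6.06 Mb from Apoe. In the microbead libraries C5ar2, Gm5905 and Gm14548 had log2 fold changes of 2.94, -7.57 and -5.07, with reads in nearly every library of 1 genotype and few in the other, while Tyrobp and Axl had values of -0.28 and -0.64. The count of 5 was made after the ranking was seen and has no test. At an unadjusted p under 0.05 stood 30 of the 616 genes of chromosome 7, or 4.87%, against 4.42% of all genes tested. Gm5905 and Gm14548 fell under the filter in the fit of the 8 sham libraries alone.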
